A study of Mus musculus with 13 samples.

Results

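The clustered protocadherin genes of the mouse were followed through 3 stages of the oligodendrocyte lineage by their called peaks of H3K4me3, H3K27me3 and OLIG2. The members were the 58 genes of the Pcdha, Pcdhb and Pcdhg clusters on chromosome 18, against 21951 protein-coding genes in the annotation as a whole. They were chosen by name and position, with 14 genes in the alpha cluster, 22 in the beta cluster and 22 in the gamma cluster, and 5 of them (Pcdhac1, Pcdhac2, Pcdhgc3, Pcdhgc4 and Pcdhgc5) are the C-type genes. In mm10 the locus ran from the first base of Pcdha1 at chr18:36930285 to the last base of Pcdhgc5 at chr18:37841873, a span of 912 kb on the plus strand. The start of each gene was taken as the start of the transcript with the longest coding sequence, and a gene was counted as carrying a peak when the peak reached to within 1 kb of that start.

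Clustered protocadherins are cell-surface cadherins that neurons use to tell their own branches from those of other cells. In the alpha and gamma clusters each variable exon has its own promoter and is spliced to constant exons shared by its cluster, whereas each beta gene is a single exon. In neurons the alternate promoters are chosen at random with the help of CTCF and cohesin, which loop a chosen promoter to distal enhancers, while the C-type promoters are used more uniformly. H3K4me3 marks the promoters of genes that are active or poised, H3K27me3 is laid down by Polycomb at silent genes, and a promoter with both is called bivalent.

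Untreated cells with no engineered allele in the labels were compared. NSCs (neural stem cells) were a purchased line from embryonic (E14.5) CD-1 mouse cortex that was expanded in culture with EGF and FGF, although the strain label of these samples reads C57BL/6. OPCs (oligodendrocyte precursor cells) and NFOs (newly formed oligodendrocytes) came from postnatal day 7 C57BL/6 brain by immunopanning, on PDGFRα and then on GalC, after microglia and endothelial cells had been removed. Stage therefore cannot be told apart from culture, strain or age in any comparison with NSCs. The data held 1 library per cell type and target, 6 for the histone marks and 2 for OLIG2 (in OPCs and NFOs), plus an OLIG2 and an IgG library of immunoprecipitated RNA, so no difference could be tested against replicate spread and every value below is a description of these libraries.

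The antibody field of the 6 histone samples names the other mark from the one in the title, and the titles were used. Filtered peaks of the libraries titled H3K4me3 reached 58.6%, 56.3% and 32.4% of protein-coding promoters in NSCs, OPCs and NFOs, and those titled H3K27me3 reached 4.1%, 7.17% and 5.02%. Peaks passing the filter of the study's methods (FDR below 0.05 and a fold enrichment over input above 3.5 for histone marks or above 5 for OLIG2) numbered from 15902 to 26385 for H3K4me3, from 8589 to 22502 for H3K27me3, and 6566 and 14076 for OLIG2. How deeply each library was sequenced cannot be read from the peak lists. NSC peaks were called from single-end reads and OPC and NFO peaks from paired-end reads by their names, so their widths are not on 1 scale. By presence of a called peak alone, H3K4me3 at cell type markers did not separate the stages. Of 4 NSC genes (Sox2, Nes, Pax6 and Hes5), NSCs had a peak at 3, OPCs at 3 and NFOs at 1. Of 3 OPC genes (Pdgfra, Cspg4 and Sox10), the counts were 2, 3 and 1. Of 4 NFO genes (Mbp, Mog, Enpp6 and Myrf), 1 had one in NSCs and 2 in OPCs, and 0 had one in NFOs, also at any annotated start. Of 6 neuron markers, 5 had an H3K4me3 peak in NSCs, 5 in OPCs and 3 in NFOs, while 0 of 3 microglia and 0 of 2 endothelial markers had one at any stage and 1 of 3 astrocyte markers (Aldh1l1) had one in NSCs alone. Fewer cells with a mark and less of the mark per cell cannot be told apart in such lists.

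Most clustered protocadherin promoters carried no called H3K4me3 peak at any stage. In NSCs 20 of the 58 members had one, or 34.5% (95% Clopper-Pearson interval 22.5% to 48.1%), where 58.6% of all protein-coding genes did. In OPCs the count was 13, or 22.4% (12.5% to 35.3%), beside 56.3% of all genes. In NFOs it was 8, or 13.8% (6.15% to 25.4%), beside 32.4% of all genes. These intervals cover counting error only and treat neighbouring genes as independent. In each cell type the upper bound of the members' interval lay below the share of all genes, and the members' share fell from stage to stage while that of all genes was close in NSCs and OPCs and lower in NFOs. With an enrichment above 5 the members' counts were 8, 8 and 6, so the fall from NSCs to OPCs rested on peaks of lower enrichment. The share of all genes above 5 was not computed, so whether this is particular to the members cannot be read. With all listed peaks, also those below the filter, the counts were 24, 13 and 13 members, beside 59.9%, 56.6% and 36.4% of all genes.

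**Figure D1:**
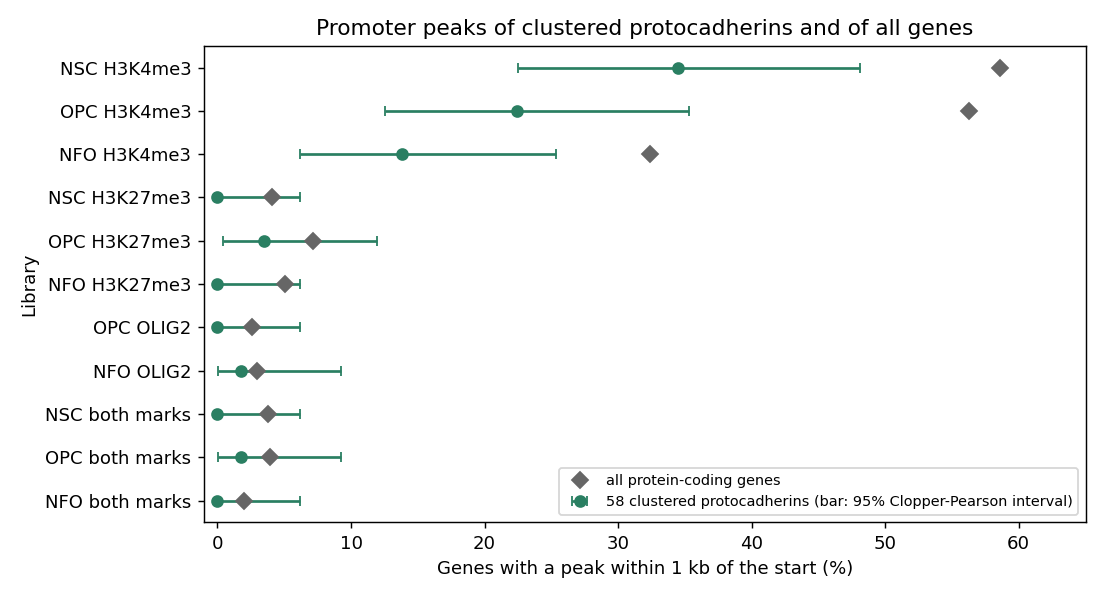
Percentage of genes with a filtered peak within 1 kb of the start (x axis) for each library, and for overlapping H3K4me3 and H3K27me3 peaks (both marks), in 58 clustered protocadherins (circles, with 95% Clopper-Pearson intervals) and in all protein-coding genes (diamonds). The members lie at 34.5%, 22.4% and 13.8% for H3K4me3 in NSCs, OPCs and NFOs, each below all genes, and at or below 3.45% in every other row.

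The members with a peak were unevenly spread over the subfamilies. In NSCs the mark was called at 5 of 5 C-type promoters, 9 of 12 Pcdhga, 1 of 12 Pcdha (Pcdha12), 4 of 22 Pcdhb and 1 of 7 Pcdhgb (Pcdhgb7). OPCs had it at 4 of 5 C-type, 4 of 12 Pcdhga, 2 of 12 Pcdha (Pcdha11 and Pcdha12), 3 of 22 Pcdhb and 0 of 7 Pcdhgb promoters. NFOs had it at 2 of 5 C-type, 4 of 12 Pcdhga, 0 of 12 Pcdha, 2 of 22 Pcdhb and 0 of 7 Pcdhgb promoters. The alpha promoters with a peak were thus the last alternate exons of that cluster, next to the C-type exons, and the beta promoters with a peak were Pcdhb1, the first gene of the cluster, and 4 genes at its far end (Pcdhb18, Pcdhb20, Pcdhb21 and Pcdhb22). Pcdha1 to Pcdha10 and Pcdhb2 to Pcdhb17 had no filtered peak at any stage. Below the filter, NFO peaks were listed at Pcdha2 (3.25-fold) and Pcdhb4 (2.96-fold), and an NSC peak was listed at Pcdhb11 (3.46-fold).

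**Figure D2:**
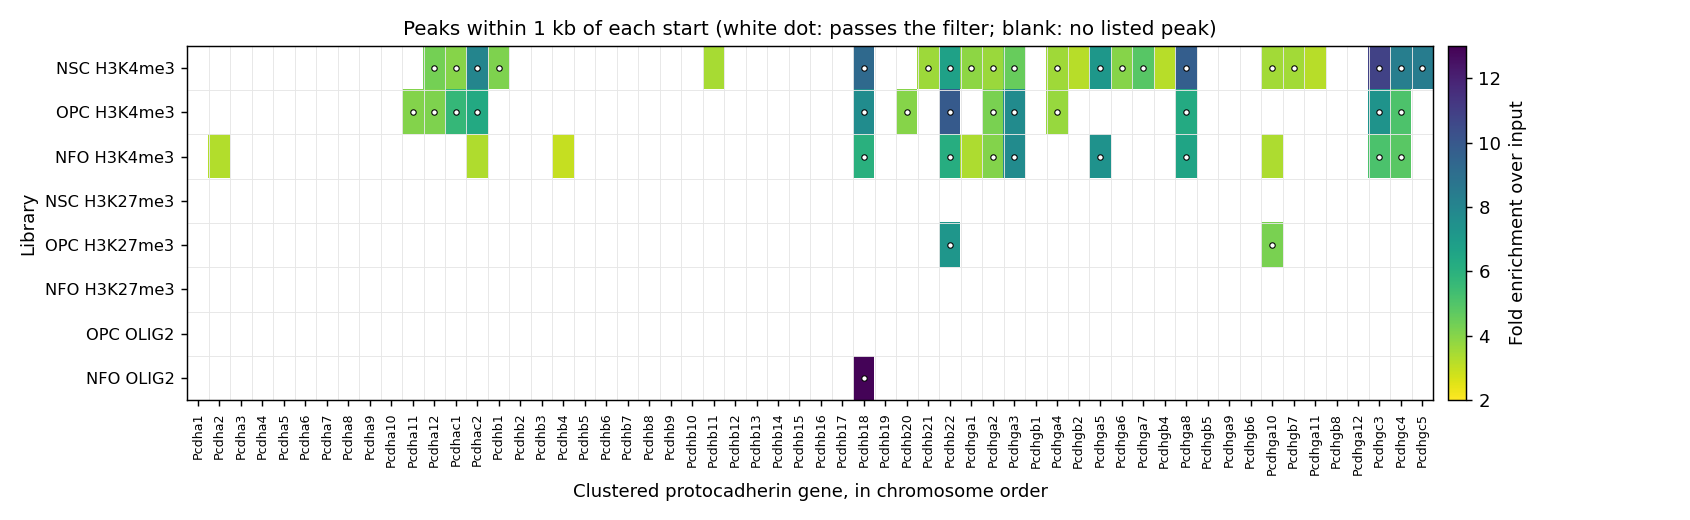
Fold enrichment over input (colour) of the strongest listed peak within 1 kb of the start of each of the 58 genes, in chromosome order (x axis), in each of the 8 ChIP-Seq libraries (y axis); white dots mark peaks that pass the filter and blank cells hold no listed peak. H3K4me3 peaks gather at the C-type genes, the end of the beta cluster and the Pcdhga genes, and the rows of H3K27me3 and OLIG2 are nearly empty, with 2 and 1 members.

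Across the stages, 7 members had a filtered H3K4me3 peak in all 3 cell types (Pcdhb18, Pcdhb22, Pcdhga2, Pcdhga3, Pcdhga8, Pcdhgc3 and Pcdhgc4), as did 31.5% of all protein-coding genes. The peak was called in NSCs and OPCs alone at 4 members (Pcdha12, Pcdhac1, Pcdhac2 and Pcdhga4), beside 23.2% of all genes. NSCs and NFOs alone shared it at 1 member (Pcdhga5), beside 0.305% of all genes. It was called in NSCs alone at 8 members (Pcdhb1, Pcdhb21, Pcdhga1, Pcdhga6, Pcdhga7, Pcdhga10, Pcdhgb7 and Pcdhgc5), or 13.8% of the 58, where 3.54% of all genes had this pattern. OPCs alone had it at Pcdha11 and Pcdhb20 (1.25% of all genes) and NFOs alone at none (0.269% of all genes). No cell type had it at 36 members, beside 39.5% of all genes. Of the 20 members with the mark in NSCs, 11 also had it in OPCs, beside 93.4% of all coding genes with the mark in NSCs. In NFOs 8 of the 20 had it, beside 54.3%, and no interval was computed for these shares. The members' NSC peaks had a lower median enrichment (4.42-fold beside 8.51-fold), so peaks of unlike strength are compared here.

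The NSC-only peaks were low, apart from that of Pcdhgc5. Pcdhga7 had 4.84-fold enrichment in NSCs, Pcdhb1 4.12-fold, Pcdhga6 4.01-fold, Pcdhga1 3.86-fold and Pcdhb21 3.61-fold. Pcdhgb7 (3.54-fold) and Pcdhga10 (3.52-fold) lay just above the filter at 3.5. In NFOs, Pcdhga1 (3.36-fold) and Pcdhga10 (3.37-fold) had a listed peak just below the filter, so their absence there rests on the threshold. The OPC-only peaks of Pcdha11 (4.06-fold) and Pcdhb20 (4.01-fold) were as low, with no listed peak in the other cell types. Among the members of both NSCs and OPCs, Pcdha12 had 4.28-fold and 4.12-fold enrichment, and Pcdhga4 had 3.55-fold and 3.68-fold. Other starts lay within 1 kb of the peaks at Pcdha12 (the antisense gene Gm10545) and of the NSC peak at Pcdhga1 (Gm37118). Pcdhga5 had 7.17-fold enrichment in NSCs and 7.41-fold in NFOs, with no listed peak in OPCs. That site lay upstream, with its edge 716 bp from the start in NSCs and 821 bp in NFOs.

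The C-type genes encode isoforms distinct from the others, and their promoters are the most uniformly used in neurons. In each cell type the widest promoter peak of the members lay at a C-type gene, but not all C-type peaks were wide. In NSCs those of Pcdhac1 (510 bp) and Pcdhgc4 (764 bp) were narrower than that of Pcdhb1 (1003 bp). Pcdhgc3 (chr18:37806410, ENSMUSG00000102918.1), a widely expressed gamma isoform, had 10.8-fold enrichment over 6833 bp in NSCs, 7.34-fold over 3569 bp in OPCs and 5.11-fold over 251 bp in NFOs. Both wide peaks covered its start, and the NFO peak stopped 513 bp upstream of it. The start of BC037039, an antisense gene, also lay within 1 kb of both wide peaks. Pcdhac2 (chr18:37143503, ENSMUSG00000102697.1), the last alpha exon and the isoform of serotonergic neurons, had 8.01-fold enrichment over 1877 bp in NSCs and 6.30-fold over 1732 bp in OPCs. Its NFO peak (3.31-fold over 476 bp) was listed below the filter. At Pcdhac1 (chr18:37090013, ENSMUSG00000103255.1) the values were 3.99-fold over 510 bp in NSCs and 5.68-fold over 505 bp in OPCs, with no listed peak in NFOs. Pcdhgc4 (chr18:37815079, ENSMUSG00000023036.14), the gamma isoform needed for the survival of many neurons, had 8.29-fold enrichment in NSCs, 5.09-fold in OPCs and 4.81-fold in NFOs. Its OPC peak covered the start, while the NSC and NFO peaks ended 237 bp and 234 bp upstream of it. Pcdhgc5 (chr18:37819513, ENSMUSG00000102543.5) had a peak in NSCs alone, 8.37-fold over 1060 bp, which ended 674 bp upstream of the start. The enrichment was highest in NSCs at 4 of the 5 genes and in OPCs at Pcdhac1, and no C-type gene had its highest value in NFOs. Fold enrichment depends on the depth and background of each library, and the part of depth in this order was not tested.

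Outside the C-type genes most promoter peaks were narrow. Over the 20 members with a peak in NSCs the median width was 415 bp (162 to 6833 bp) and the median enrichment 4.42-fold, where all 12859 coding genes with a peak had medians of 2178 bp and 8.51-fold. In OPCs the 13 members had medians of 271 bp and 5.68-fold, beside 1368 bp and 6.47-fold. In NFOs the 8 members had medians of 253 bp and 6.07-fold, beside 596 bp and 5.22-fold. Enrichment was therefore lower than the genome's median in NSCs and OPCs and higher in NFOs, while the peaks were narrower in all 3 cell types. Peaks under 400 bp made up 10 of the 20 NSC peaks, 7 of the 13 OPC peaks and 7 of the 8 NFO peaks, where the share over all coding genes with a peak was 2.50%, 5.14% and 40.1%. With peaks over 400 bp alone, an alternative chosen after seeing the data, the members with the mark numbered 10 in NSCs, 6 in OPCs and 1 in NFOs (Pcdhgc4). The start itself lay under the peak at 9 members in NSCs, 4 in OPCs and 1 in NFOs. For these counts and those over 400 bp the share of all genes was not computed.

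**Figure D3:**
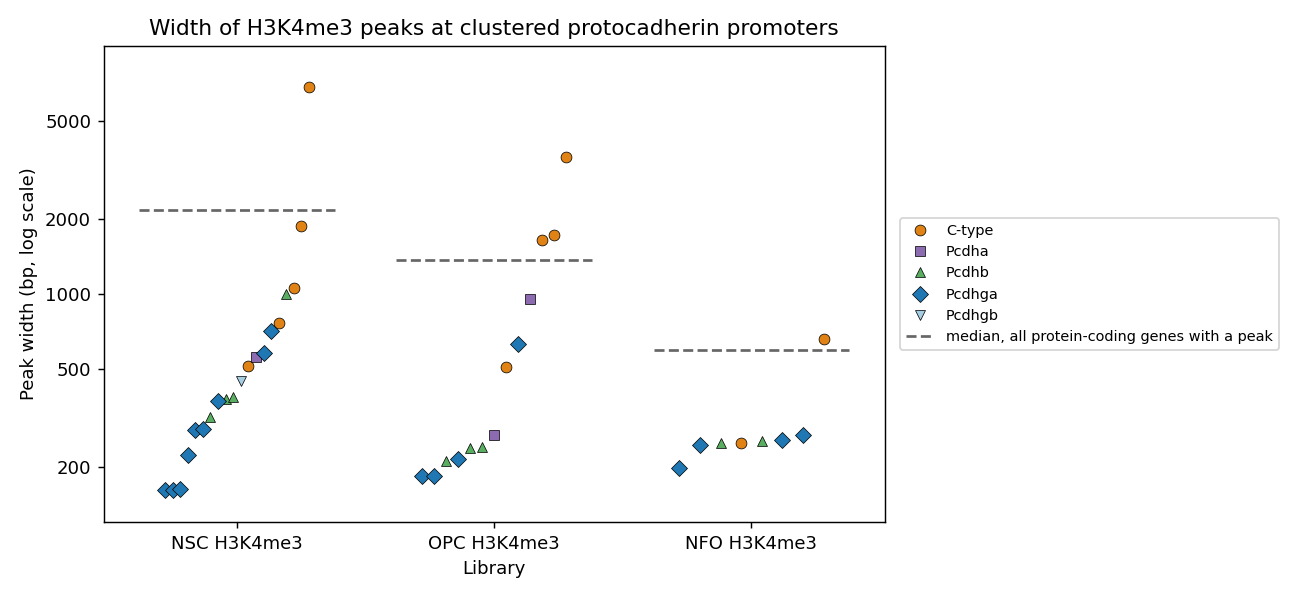
Width in bp (log scale) of each filtered H3K4me3 peak at a clustered protocadherin promoter, by library, with symbols for the subfamily and dashed lines for the median over all protein-coding genes with a peak (2178, 1368 and 596 bp). In OPCs and NFOs the peaks above the dashed line belong to C-type genes, and in NSCs Pcdhgc3, at 6833 bp, is above it alone.

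Several of the narrow peaks recurred at the same place in several lists. At Pcdhb18 (chr18:37489465, ENSMUSG00000048347.5), a beta gene of a single exon, the H3K4me3 peak was 9.23-fold over 385 bp in NSCs, 7.66-fold over 241 bp in OPCs and 6.01-fold over 255 bp in NFOs, and the OPC and NFO peaks began at the same base, 5 bp past the start. At Pcdhb22 (chr18:37517871, ENSMUSG00000073591.4), the last beta gene, the peak lay within the gene, 377 to 752 bp past the start in NSCs, and was 6.71-fold over 376 bp in NSCs, 9.88-fold over 239 bp in OPCs and 6.13-fold over 250 bp in NFOs. At Pcdhga8 (chr18:37725706) it spanned the start with 9.73-fold, 6.27-fold and 6.60-fold enrichment in NSCs, OPCs and NFOs, and the start of the antisense gene Gm37165 lay within 1 kb. Pcdhb18 had the highest value of the Pcdhb genes in NSCs and Pcdhb22 in OPCs and NFOs, and Pcdhga8 had that of the Pcdhga genes in NSCs. Pcdhga3 (chr18:37674307), with 4.56-fold, 7.69-fold and 7.70-fold, was the highest of the Pcdhga genes in OPCs and NFOs. Pcdhga2 had lower values at a site upstream of its start, 3.64-fold, 4.2-fold and 4.03-fold. Of the 7 members with the mark at all 3 stages, the 5 outside the C-type genes therefore had peaks of 184 to 385 bp in every list.

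H3K27me3 was nearly absent from the promoters. In NSCs 0 of 58 members had a peak, which allows a share of up to 6.16% (Clopper-Pearson), where 4.1% of all protein-coding genes had a filtered and 6.26% a listed one. In NFOs it was again 0 of 58, beside 5.02% of all genes with a filtered and 5.95% with a listed peak. In OPCs it was 2 of 58, or 3.45% (0.420% to 11.9%), beside 7.17% and 8.98% of all genes. Each interval held the share of all genes with a filtered peak, so a lower share in the members was not detectable there with 58 genes. With listed peaks the NSC bound of 6.16% lay just below the 6.26% of all genes, and the other intervals held the share. The 2 members were Pcdhb22, with 7.23-fold enrichment over 175 bp, and Pcdhga10 (chr18:37746993), with 4.22-fold over 478 bp that ended 431 bp upstream of its start. Neither reached 1 kb in width, where 46.7% of the coding genes with an OPC H3K27me3 promoter peak had one of 1 kb or more.

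Both marks overlapped at 1 member. In OPCs the H3K27me3 peak of Pcdhb22 lay within the H3K4me3 peak at the narrow site described above, their first bases 1 bp apart, and 3.95% of all protein-coding genes had overlapping marks at the promoter. NSCs (3.81% of all genes) and NFOs (1.98%) had 0 of 58 such members. At Pcdhga10 the OPC H3K27me3 peak had no H3K4me3 peak of OPCs beside it, and the NFO H3K4me3 peak of that gene, listed below the filter, overlapped its bases. Across the 3 stages 2 of 58 members ever had an H3K27me3 promoter peak, and 9.75% of all genes did.

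OLIG2, the basic helix-loop-helix factor of the lineage, had a promoter peak at 0 of 58 members in OPCs (up to 6.16%, beside 2.62% of all genes) and at 1 of 58 in NFOs (1.72%, 0.0436% to 9.24%, beside 2.97%). The members' counts were the same with all listed OLIG2 peaks, which reached 2.76% and 3.33% of all genes. The member was Pcdhb18, where a 12.9-fold peak of 236 bp covered the start and overlapped the narrow H3K4me3 peaks of all 3 cell types. Over the whole locus OPCs had 0 of their 6566 OLIG2 peaks and NFOs 3 of 14076. At the mean density of peaks over the genome, 2.41 and 5.16 per Mb, a span of this length would hold 2.20 and 4.71. The other 2 NFO peaks stood between clusters. One at chr18:37209733-37209968 (7.09-fold) was 54970 bp upstream of Pcdhb1 with no histone peak at it. The other at chr18:37639251-37639486 (11.2-fold) was within 1 kb of the start of Slc25a2, a mitochondrial carrier gene between the beta and gamma clusters.

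Along the locus, H3K4me3 peaks covered the largest share in the gamma cluster in each of the 3 lists. In NSCs filtered peaks covered 7.60% of the 180 kb gamma cluster, 1.74% of the 257 kb alpha cluster and 0.858% of the 260 kb beta cluster, beside 1.30% of the genome. In OPCs the shares were 3.69%, 1.5% and 0.266%, beside 0.769%. In NFOs they were 1.18%, 0.239% and 0.35%, beside 0.307%. The gamma cluster was thus above the genome's share at each stage, the beta cluster below it in NSCs and OPCs and slightly above it in NFOs, and the alpha cluster above it in NSCs and OPCs and below it in NFOs. Much of the gamma length was a single peak at Pcdhgc3 in NSCs (6833 of 13685 bp) and OPCs (3569 of 6641 bp). In NFOs the Pcdhgc3 peak made up 251 of 2121 bp. The number of filtered peaks over the locus was 39, 20 and 19, of which 23, 11 and 17 were under 400 bp, so NFOs had about as many peaks as OPCs on a smaller length of DNA (4945 bp against 14896 bp). Such a length moves with how much was called in each library, as the genome's shares show.

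H3K27me3 showed no domain over any cluster. Filtered peaks covered 0.471% of the locus in NSCs, 0.199% in OPCs and 0.0445% in NFOs, where the genome's shares were 0.552%, 0.605% and 0.437%. There were 8, 5 and 2 peaks. The widest peak in the locus measured 1428 bp in the NSC list, 520 bp for OPCs and 217 bp for NFOs, while the widest of the genome measured 117916, 53817 and 46698 bp. Of the 8 NSC peaks, 5 lay between the beta and gamma clusters, 1 between the alpha and beta clusters, 1 in the alpha cluster and 1 in the gamma cluster. The strongest in OPCs (9.71-fold and 8.33-fold) also lay between the beta and gamma clusters, 10654 bp and 12482 bp upstream of Pcdhga1, and the farther site had a peak in NSCs (4.39-fold) and NFOs (6.34-fold) as well. It was the only site of the locus with an H3K27me3 peak in all 3 lists. Of the NSC H3K27me3 peaks 5 of 8 overlapped an NSC H3K4me3 peak, where 16.0% did over the genome, and in OPCs 2 of 5 did, where 8.55% did. In NFOs it was 0 of 2, where 13.2% did.

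**Figure D4:**
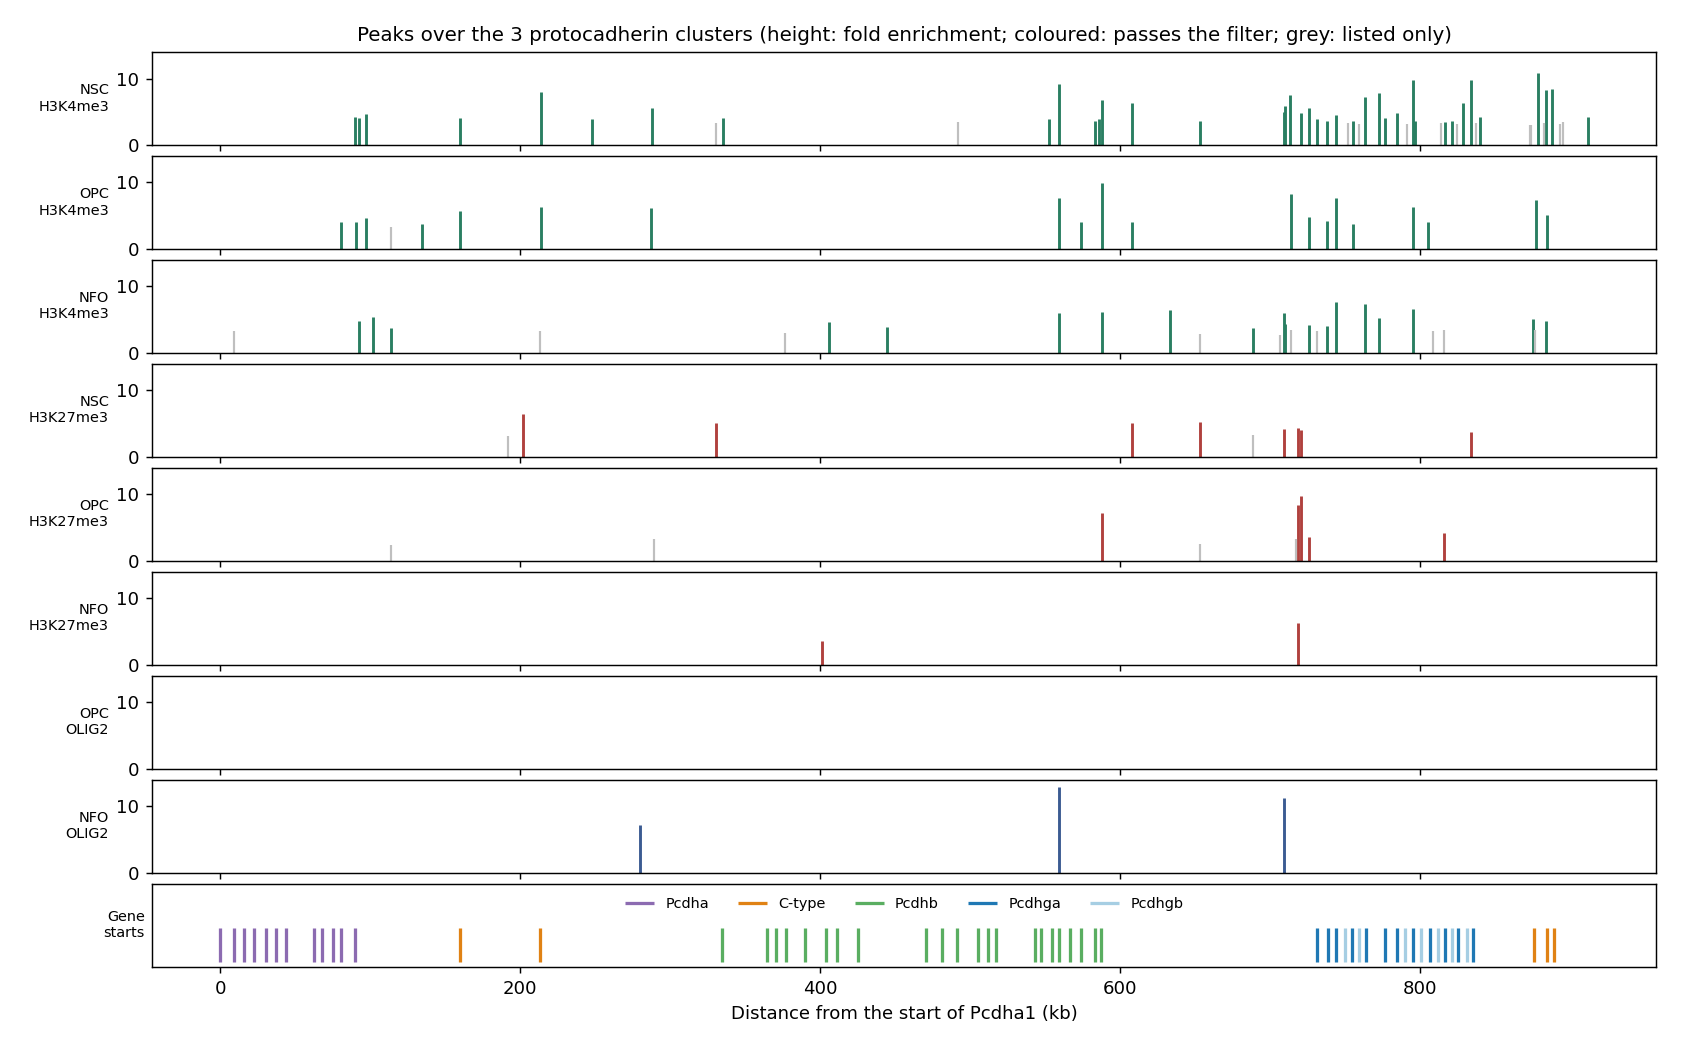
Called peaks of the 8 ChIP-Seq libraries over the locus, drawn at the peak's centre in kb from the start of Pcdha1 (x axis) with the fold enrichment as height (y axis of each row); coloured lines pass the filter, grey lines are listed only, and the bottom row gives the gene starts by subfamily. The beta genes up to Pcdhb17 have almost no peak, and H3K4me3 peaks crowd at the end of the beta cluster and over the gamma cluster, where NSCs have 19 filtered peaks, OPCs 7 and NFOs 7.

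When all listed peaks of the 8 lists were merged, also those below the filter, they formed 72 sites over the locus. Of these sites 43 were in 1 list, 12 in 2, 12 in 3 and 5 in 4. Both histone marks met at 11 sites, with the cell types pooled, so the marks were not always from the same cell type. The site near Slc25a2 was the only one with all 3 targets, with H3K4me3 in NSCs (4.94-fold) and NFOs (5.97-fold) where the OLIG2 peak lay, H3K27me3 in NSCs (4.21-fold over 1428 bp) and OLIG2 in NFOs. Some strong sites fell outside the 1 kb window. A 9.75-fold NSC H3K4me3 peak lay 1306 bp upstream of Pcdhga12 and overlapped a 3.79-fold NSC H3K27me3 peak 1237 bp upstream, and with a window of 2 kb this made Pcdhga12 the single member with H3K27me3 and with both marks in NSCs. Other peaks just outside were 1062 bp past Pcdhga8 (3.54-fold in NSCs), 1171 bp before Pcdhga9 (4.09-fold in OPCs) and 1328 bp before Pcdhb22 (3.89-fold in NSCs). Just inside were the peaks of Pcdhga5 (821 bp from the start in NFOs and 716 bp in NSCs) and Pcdhgc5 (674 bp in NSCs). No member's window overlapped that of a neighbour, the nearest starts being 3779 bp apart, and each call rested on a peak of its own.

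The sequence around the starts differed between subfamilies. Within 500 bp of the start the median observed-to-expected ratio of CpG was 0.693 for Pcdha, 0.670 for C-type, 0.642 for Pcdhgb, 0.588 for Pcdhga and 0.378 for Pcdhb genes, beside 0.566 for other protein-coding genes. Promoters of the C-type genes had a median G+C content of 55.8% and those of Pcdhb genes 41.5%, beside 55.2% for other genes. The Pcdha promoters thus had the highest median CpG ratio of the subfamilies, at a median G+C content of 45.5%, and were among the poorest in called H3K4me3. The 20 members with an NSC peak had a median CpG ratio of 0.577 (0.212 to 0.798) and the 38 without had 0.488 (0.158 to 0.864), and these ranges overlapped almost throughout. Because the members are paralogs and the authors kept uniquely mapped reads, the share of 50-base stretches in each 2 kb window that occur once in the genome was also counted. Its median was 91.3% for Pcdha (82.1% to 96.3%), 95.7% for Pcdhgb (85.1% to 100%) and 99.8% for Pcdhga (94.4% to 100%). For Pcdhb it was 100% (86.9% to 100%) and for C-type genes 100%, beside 100% for the other coding genes of the chromosome. It was 100% in the members with an NSC peak (92.8% to 100%) and 93.8% in those without (82.1% to 100%), and its part in the counts was not tested. The Pcdhb genes with a filtered peak at any stage (Pcdhb1, Pcdhb18, Pcdhb20, Pcdhb21 and Pcdhb22) were all at 100%. Pcdhb4 to Pcdhb12 and Pcdhb15, at 86.9% to 99.6%, had none. Neither did Pcdhb2, Pcdhb3, Pcdhb13, Pcdhb14, Pcdhb16, Pcdhb17 and Pcdhb19, which were at 100%.

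Non-clustered protocadherins, single genes that encode cadherins of the same superfamily, had wide peaks at most of their promoters. In NSCs 9 of 12 had a filtered H3K4me3 peak, in OPCs 10 of 12 and in NFOs 9 of 12, beside 58.6%, 56.3% and 32.4% of all genes, with median widths of 4602, 3225 and 1270 bp and median enrichments of 9.27-fold, 7.40-fold and 4.23-fold. Pcdh17 (11.4-fold, 9.83-fold and 8.58-fold) and Pcdh7 (9.27-fold, 6.23-fold and 5.17-fold) had the peak at every stage. Pcdh1 and Pcdh12 had none. None of the 12 had an H3K27me3 or OLIG2 promoter peak in any list. The difference from the clustered genes was not tested, since each cell type had 1 library.

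Genes for CTCF, for cohesin and its partners, for DNA methylation and for repressors linked to the clusters had the mark at most stages. Of these 15 genes, the H3K4me3 peak was called at 15 in NSCs, 15 in OPCs and 10 in NFOs, beside the 58.6%, 56.3% and 32.4% of all genes. The cohesin genes kept it, with 16.1-fold, 12-fold and 12.7-fold enrichment at Rad21 and 7.10-fold, 5.50-fold and 5.21-fold at Smc3, as did Nipbl, the cohesin loader (13.6-fold, 13.7-fold and 22.3-fold). Ctcf, the looping factor, had 9.49-fold enrichment in NSCs and 7.42-fold in OPCs and no filtered peak in NFOs, as was the case for Dnmt3a, Dnmt3b, Rest and Wiz. Nipbl was the 1 gene of the 15 with an OLIG2 promoter peak, 18.2-fold in OPCs and 10.6-fold in NFOs. Smchd1, a repressor of the clusters, had 10.5-fold, 7.19-fold and 4.34-fold H3K4me3 enrichment. None of the 15 had an H3K27me3 promoter peak.

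Of the 5 genes next to or between the clusters, 4 had wide H3K4me3 peaks in NSCs (1878 to 3215 bp) and Slc25a2 a narrow one (4.94-fold over 248 bp in NSCs and 5.97-fold over 241 bp in NFOs, with none in OPCs). Zmat2, upstream of the alpha cluster, had 14.2-fold, 9.67-fold and 10.1-fold H3K4me3 enrichment in NSCs, OPCs and NFOs, and Diaph1, on the far side of the gamma cluster, had 7.32-fold, 10.3-fold and 5.62-fold. Taf7, a general transcription factor gene between the beta and gamma clusters, had 7.59-fold in NSCs and 8.31-fold in OPCs, and in NFOs 3.39-fold, below the filter. The H3K4me3 peak was called at 5, 4 and 3 of the 5 neighbours (Zmat2, Slc25a2, Taf7, Diaph1 and Hdac3). Zmat2 and Diaph1, on the 2 sides of the locus, were thus called in each of the 3 H3K4me3 libraries.

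No RNA site of a member was listed in the RNA immunoprecipitation. The OLIG2 library listed 101310 sites and the IgG library 83195, of which 2892 and 2262 were on chromosome 18. Of either, 0 lay in a transcript of a clustered protocadherin or in the locus. The listed sites fell in 1961 transcripts in the OLIG2 library and in 1971 in the IgG library. The share of all genes with a site was not computed, so whether their absence is particular to the members cannot be read. The titles of these libraries name newly formed oligodendrocytes and the study's methods name NSCs. The library called IgG here is titled input, and IgG as the control comes from the study's methods. The lists hold sites with at least 4 tags, so fewer tags than that in these transcripts were not detectable.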

How the data were processed

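The peak lists of 6 histone ChIP-Seq libraries (3 cell types by 2 marks) and of 2 OLIG2 libraries (OPCs and NFOs) were used, and samples were grouped by their titles. The authors aligned reads with Bowtie2 to the mm10 genome, discarded reads without a unique position, called broad histone peaks with MACS2 and OLIG2 peaks with SPP, and removed blacklisted regions. The deposited lists give for each peak the fold enrichment, a ratio over input computed by the authors' caller, and the −log10 of the FDR. For the RNA immunoprecipitation the authors ran ASPeak, and the deposited site lists hold tag counts, a p-value for each site and the RPKM of its transcript. Of these the positions and the tag counts were used. The 3 input libraries and OLIG2 in NSCs were not analysed here.

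Gene starts came from GENCODE M21 (GRCm38), 1 per gene, and GENCODE gives 2 genes the name Pcdha11, of which the one nearest the NCBI start of Pcdha10 was taken as Pcdha10. Pcdhgb8 is annotated there as a polymorphic pseudogene and was kept as a member, outside the 21951 coding genes. A peak counted with an FDR below 0.05, a fold enrichment above 3.5 (OLIG2 5) and an overlap of at least 1 bp with the window of 1 kb on each side of the start. Both marks means filtered peaks that overlap each other and reach that window. G+C, CpG and the uniqueness of 50-base stretches were computed from the GRCm38.p6 assembly. The overlap step alone was checked among 21938 coding genes with simulated peaks at known distances from isolated starts. It recovered 100% of 200 planted calls with 0 false ones. This checks the code and says nothing on how well the peaks themselves were called. Intervals came from SciPy 1.17.1, figures from Matplotlib 3.10.9, and all else from Python 3.11.15 with pandas 2.3.3 and NumPy 2.4.6. Precision is given by exact binomial (Clopper-Pearson) 95% intervals, which cover counting error only, since the depth of the libraries is unknown.

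The 58 members and the gene lists were chosen with earlier results of these data known. Named with values were the C-type genes, the member with the highest H3K4me3 enrichment of each subfamily and cell type, members with H3K27me3, both marks or OLIG2, and members whose calls differed between cell types. Alternatives were all listed peaks, a stricter enrichment (above 5, OLIG2 10), a window of 2 kb, any transcript start, an overlap of 200 bp, H3K27me3 peaks of 1 kb or more and, added after seeing the data, peaks over 400 bp alone. No sequence is printed, and 1 gene of the marker lists is not reported here.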

Additional observations from a re-analysis of the deposited data

How the results depend on the processing

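No paired analysis was possible because each cell type and target had 1 library and no result came from a test. The members' H3K4me3 counts in NSCs, OPCs and NFOs were 20, 13 and 8 as reported, 22, 14 and 8 with a window of 2 kb, and 17, 11 and 6 with an overlap of 200 bp. With a stricter fold enrichment they were 8, 8 and 6, so the fall from NSCs to OPCs was lost. With all listed peaks the NFO count was 13, as in OPCs. With peaks over 400 bp alone they were 10, 6 and 1. For H3K27me3 in OPCs the count was 1 with a stricter enrichment, an overlap of 200 bp or peaks over 400 bp alone, and 0 with peaks of at least 1 kb. In NSCs a window of 2 kb gave 1 member with H3K27me3 and 1 with both marks. With peaks over 400 bp alone OPCs had 0 members with both marks. With the start of any transcript all 11 counts were as reported. Apart from all listed peaks, the shares of all genes under these settings were not computed.

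For coverage the filter was the choice varied. With a stricter enrichment H3K4me3 covered 0.729% of the alpha and 0.293% of the beta cluster in NSCs, 0.869% of the alpha cluster in OPCs, and 0.0680%, 0.195% and 0.704% of the alpha, beta and gamma clusters in NFOs. H3K27me3 then covered 0% of the gamma cluster in NSCs and OPCs and 0% of the beta cluster in NFOs. With all listed peaks H3K4me3 covered 12.3% of the gamma cluster in NSCs, and 0.509% of the alpha and 1.97% of the gamma cluster in NFOs, while H3K27me3 covered 0.552% of the alpha cluster in NSCs and 0.0664% in OPCs. Each of these changes follows from the number of peaks kept. The depth of the libraries, which is unknown, limits every count of peaks.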
